A study of Homo sapiens with 48 samples.

Results

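The genes of homologous recombination and of the Fanconi anaemia pathway were followed in nascent RNA and in mRNA of a human breast epithelial cell line. The set held 32 genes, chosen by name for their place in these pathways. Earlier results of these data were known when the set and the lists set beside it were chosen. All 32 had a row among the 15535 rows with a gene symbol in the RNA-seq table, and 31 had a row among the 14745 of the GRO-seq table, where RAD51D was not analysed here. The cells were MCF10A-1, an immortalised breast epithelial line. They carried either a control vector or a construct for stable expression of SATB1, a nuclear protein that organises chromatin loops. The labels do not say whether the SATB1 cells are 1 clone. Vector and SATB1 cells were each left untreated or cultured with 4 µM benzo[a]pyrene (B[a]P) for 3 hours or 3 days, which gave 6 groups of 4 libraries for each assay and 48 libraries in all. All groups grew in the same medium, with fetal bovine serum in place of horse serum and with epidermal growth factor, hydrocortisone, insulin and cholera toxin. In GRO-seq, polymerases already on the genes run on in isolated nuclei and the RNA they add to is captured, whereas the RNA-seq libraries were made from poly(A)-captured mRNA.

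Homologous recombination repairs a broken chromosome by copying an intact sister. The broken ends are first resected to single strands, BRCA2, PALB2 and BRCA1 then act with further factors to pair these strands with the sister, and the joint molecules that follow are dissolved or cut. The Fanconi anaemia pathway acts on interstrand crosslinks and stalled forks: a multi-subunit ligase, working with the E2 enzyme UBE2T, attaches ubiquitin to FANCD2 and FANCI, which brings nucleases and recombination proteins to the lesion. Many genes of these pathways are transcribed mainly in S phase. B[a]P is metabolised to an epoxide that forms bulky DNA adducts, which block replication forks.

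The data were the authors' own comparisons, in which each gene has a linear fold change with its unadjusted p-value in each of 5 contrasts. These are numbered in the headers without their groups and are called by number here. A called gene is written as higher where its ratio is above 1 and as lower where it is under 1. Since 5 contrasts were drawn from 6 groups, some must share libraries, and the contrasts are not independent of each other. A gene was called at a Benjamini-Hochberg adjusted p under 0.05 over the whole table, and the value after ± is the standard error of the log2 fold change implied by the deposited ratio and its p-value. As landmarks, SATB1 mRNA was 112-fold in contrast 1 and between 0.836-fold and 1.49-fold in the others in the authors' deposited table. mRNA of CYP1A1, a cytochrome P450 gene induced by B[a]P through the aryl hydrocarbon receptor, was 1.46-fold, 195-fold, 36.0-fold, 45.6-fold and 4.79-fold in contrasts 1 to 5. No value per library was used here, so neither depth nor the spread between libraries is known, and the cell type could not be checked by levels. Both tables list all 6 basal and all 5 luminal epithelial markers looked for, and 4 (GRO-seq) or 5 (RNA-seq) of 5 fibroblast markers.

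Where the recombination and Fanconi genes were called, they were lower in nascent RNA, and in mRNA they were mostly higher in contrasts 1 and 3. The mRNA calls of contrasts 2, 4 and 5 were fewer. In nascent RNA of contrast 4, 23 of 31 members nonetheless had a ratio above 1, against 7570 of all 14745 genes. In GRO-seq, every call of a member was lower: none of 31 in contrast 1, 4 in contrast 2, 9 in contrast 3, 1 in contrast 4 and 1 in contrast 5, with ratios in the authors' deposited table from 0.308 to 0.618. Most RNA-seq calls were higher in the contrasts with many of them, with 17 of 32 higher and 4 lower in contrast 1 and 15 higher and 6 lower in contrast 3. Contrast 2 had 2 higher and 6 lower, contrast 4 had 1 and 1, and contrast 5 had 5 and 1. All called mRNA changes were small, the largest being 1.42-fold in either direction, against 3.25-fold in GRO-seq. Implied standard errors of the members had a median of 0.30 (log2) in nascent RNA and 0.05 in mRNA, so the median called mRNA change, 1.15-fold, is smaller than 1 typical standard error of GRO-seq.

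These counts stand against the share of all genes called. In GRO-seq, the share called lower was 0.495%, 7.83%, 8.92%, 1.53% and 0.122% in contrasts 1 to 5, and the share called higher was 0.292%, 7.63%, 9.23%, 1.58% and 0.115%. In RNA-seq, the share called higher was 23.2%, 9.64%, 18.3%, 3.87% and 10.5%, and the share called lower was 20.7%, 9.63%, 17.8%, 4.9% and 10.9%. The members' 9 of 31 lower in GRO-seq contrast 3 and their 17 and 15 of 32 higher in RNA-seq contrasts 1 and 3 lie above these shares. In RNA-seq contrast 2 the order was the other one. There 18.8% of members were called lower, against 9.63% of all genes, and 6.25% higher, against 9.64%. These are only 6 and 2 of 32 members and are not read as a pattern of the set. The 6 lower in RNA-seq contrast 3 (18.8%) lie close to the background share. In RNA-seq contrast 5, the 5 called higher are 15.6%, against 10.5% of all genes. In GRO-seq contrast 2, the 4 called lower are 12.9%, against 7.83%. These counts are few and are not read as a result about the set. The single calls of GRO-seq contrasts 4 and 5 say nothing about the set. Of all 32, RAD51C and SLX4 were called in no contrast of either assay. In GRO-seq contrast 1, where no member was called, 6 of 31 passed an unadjusted p under 0.05, against 2162 of all 14745 genes. There 8 members had a ratio above 1 and 23 below. In contrasts 2, 3 and 5, 11, 8 and 9 members had a ratio above 1 and 20, 23 and 22 below. Contrast 4 went the other way, with 23 above and 8 below and a median of 1.20-fold. Of all 14745 genes, 7451, 7162, 7309, 7570 and 7332 had a ratio above 1 in contrasts 1 to 5. Their median in contrast 4 was 1.01-fold.

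**Figure D1:**
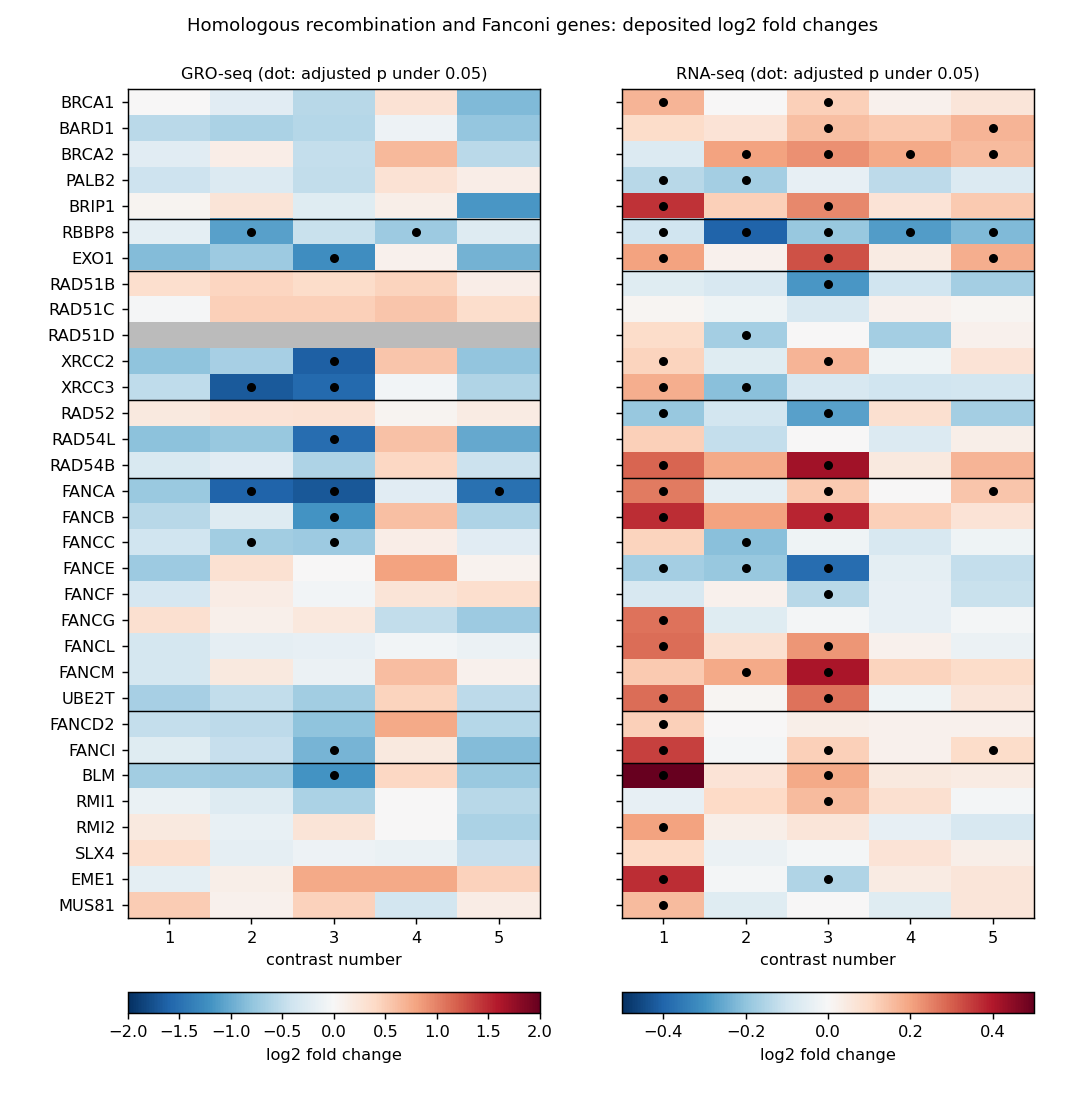
Log2 fold change of each of the 32 genes (rows, grouped by role, with lines between groups) in contrasts 1 to 5 (columns) for GRO-seq and RNA-seq, on colour scales that differ between the panels. Dots mark an adjusted p under 0.05 and grey marks RAD51D, which has no GRO-seq value; the dots in GRO-seq are all on blue (lower) cells, while those in RNA-seq contrasts 1 and 3 are mostly on red (higher) cells.

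The start regions of the 4 members with the smallest adjusted p for a difference between the assays, among those with a match to an E2F site, are shown because E2F factors drive the S phase transcription of many of these genes. Each runs 5′ to 3′ on the strand of the gene, from 250 bases before its start to 50 after, as given by RefSeq for GRCh38.p14, and capitals mark the E2F matches.
FANCA (chr16:89816598-89816897, minus strand): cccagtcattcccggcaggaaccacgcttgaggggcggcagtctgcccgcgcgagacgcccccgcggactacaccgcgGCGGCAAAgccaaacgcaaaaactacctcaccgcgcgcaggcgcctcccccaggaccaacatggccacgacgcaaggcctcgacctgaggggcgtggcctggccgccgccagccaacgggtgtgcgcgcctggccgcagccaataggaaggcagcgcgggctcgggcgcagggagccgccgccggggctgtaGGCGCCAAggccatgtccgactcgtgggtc
EXO1 (chr1:241847954-241848253, plus strand): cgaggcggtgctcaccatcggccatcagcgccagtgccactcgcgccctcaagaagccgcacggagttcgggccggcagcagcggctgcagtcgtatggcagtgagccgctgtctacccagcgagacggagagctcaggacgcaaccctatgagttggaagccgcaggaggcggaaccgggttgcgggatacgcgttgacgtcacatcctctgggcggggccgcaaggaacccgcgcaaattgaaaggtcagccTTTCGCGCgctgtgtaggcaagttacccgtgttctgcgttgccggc
XRCC2 (chr7:152676092-152676391, minus strand): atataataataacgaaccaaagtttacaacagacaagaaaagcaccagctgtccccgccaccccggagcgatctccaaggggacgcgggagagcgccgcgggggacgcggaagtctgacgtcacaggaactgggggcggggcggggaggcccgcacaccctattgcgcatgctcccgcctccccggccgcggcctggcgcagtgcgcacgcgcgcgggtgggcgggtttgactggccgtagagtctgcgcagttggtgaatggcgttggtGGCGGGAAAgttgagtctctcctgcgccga
FANCC (chr9:95317660-95317959, minus strand): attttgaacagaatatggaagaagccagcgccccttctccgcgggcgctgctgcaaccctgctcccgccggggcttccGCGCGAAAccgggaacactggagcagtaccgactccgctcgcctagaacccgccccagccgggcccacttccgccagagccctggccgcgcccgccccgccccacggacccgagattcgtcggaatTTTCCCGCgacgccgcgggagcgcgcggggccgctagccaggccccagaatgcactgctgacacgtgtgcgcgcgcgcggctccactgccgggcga

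The spellings searched on both strands were TTTGGCGC or TTTCCCGC or TTTCGCGC or TTTGCCGC or TTCCCGCC or TTGGCGCC, of which some overlap each other. FANCA has 2 separate matches, 1 of them just after the start. EXO1 has 1 match just after the start shown, and another of its starts holds no E2F match. XRCC2 has 2 overlapping matches just after the start shown. FANCC has 2 separate matches before the start shown, which is 1 of its 2 starts in the table. More than 1 start was given for 10 members. A gene with several starts was counted once, with a match at any of them. Of the 29 members with a promoter in the RefSeq table, 12 (41.4%) held at least 1 match, against 1434 of 12769 measured genes (11.2%). Over all 35116 promoters, with each start counted by itself and not by gene, the share was 6.26%. The other members with a match are BLM, BRIP1, FANCD2, FANCL, RAD52, RAD54L, RMI1 and XRCC3. A match to the CHR element (TTTGAA or TTCGAA), which is bound in cell cycle genes, was held by 3 members (10.3%, against 16.5% of measured genes). CCAAT was held by 12 (41.4% against 42.7%), and the core of the aryl hydrocarbon receptor site, GCGTG, by 17 (58.6% against 54.7%). A match is a description of these letters and not a bound site. In GRO-seq contrast 3, 7 of the 12 members with an E2F match were called lower, against 1 of 16 without one, with medians of 0.499-fold and 0.927-fold. Over all measured genes the same split gave 11.7% called lower of 1331 with a match and 8.79% of 10165 without. Contrast 3 was the most unequal of the 5 GRO-seq contrasts. Calls lower numbered 0, 3, 0 and 1 with a match and 0, 1, 1 and 0 without in contrasts 1, 2, 4 and 5. In RNA-seq contrast 3, 7 of 12 members with a match were called higher and 1 lower, against 6 and 5 of 17 without. In RNA-seq contrast 1 these counts were 8 and 1 against 6 and 3, in contrast 2 they were 0 and 2 against 2 and 4, in contrast 4 they were 0 and 0 against 1 and 1, and in contrast 5 they were 2 and 0 against 2 and 1. Over all genes with a match, RNA-seq called 28.6%, 10.4%, 21.9%, 3.68% and 11.9% higher in contrasts 1 to 5. Over all genes without one it called 23.1%, 9.83%, 18.5%, 4.04% and 10.8% higher. Called lower in RNA-seq were 21%, 10.2%, 18.5%, 4.69% and 9.52% of all genes with a match. Without a match the shares called lower were 20.6%, 9.39%, 17.7%, 4.6% and 11.1%. In GRO-seq contrasts 1, 2, 4 and 5, 0.301%, 9.69%, 1.13% and 0.225% of all genes with a match were called lower. Without one it was 0.482%, 7.96%, 1.63% and 0.108%.

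The BRCA proteins come first in the order of roles. BRCA1, which acts with BARD1 as a ubiquitin ligase in resection and strand pairing, had mRNA ratios of 1.12, 1.00, 1.08, 1.02 and 1.04 in contrasts 1 to 5 of the authors' deposited table. It was called higher in contrast 1 (log2 0.17 ± 0.03, adjusted p = 0.00013) and contrast 3 (0.12 ± 0.03, adjusted p = 0.0059). Its nascent RNA ratios were 1.01, 0.858, 0.678, 1.23 and 0.540, none of them called. BARD1 mRNA was called higher in contrast 3 (1.11-fold, adjusted p = 0.014) and contrast 5 (1.12-fold, adjusted p = 0.015), while its nascent ratios lay between 0.583 and 0.935.

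BRCA2, which acts on resected single strands, was called higher in mRNA in the 4 contrasts other than contrast 1. The ratios in the authors' deposited table were 0.954, 1.15, 1.17, 1.14 and 1.11 in contrasts 1 to 5, with adjusted p = 0.0096, 0.0011, 0.034 and 0.048 in contrasts 2 to 5. In nascent RNA its ratios were 0.851, 1.10, 0.721, 1.56 and 0.689, with none called. PALB2, the bridge between BRCA1 and BRCA2, went the other way in mRNA, with ratios of 0.910, 0.887, 0.972, 0.914 and 0.950 and calls in contrast 1 (adjusted p = 0.0080) and contrast 2 (adjusted p = 0.0030). Its nascent ratios were 0.748, 0.825, 0.710, 1.22 and 1.09. The BRCA1-associated helicase gene BRIP1 was called higher in mRNA in contrast 1 (1.29-fold, adjusted p = 1.3e-06) and contrast 3 (1.18-fold, adjusted p = 0.00048) in the authors' deposited table, and was not called in nascent RNA.

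Both resection genes were called in each assay. RBBP8 encodes CtIP, which starts the resection of broken ends. Its mRNA ratios in the authors' deposited table were 0.930, 0.757, 0.877, 0.826 and 0.857 in contrasts 1 to 5, and it was called lower in each, the only member of which that is true. Its log2 fold change in contrast 2 was -0.40 ± 0.03 (adjusted p = 3.3e-12), and the adjusted p-values were 0.0029, 2.9e-06, 5.1e-08 and 9.6e-07 in contrasts 1, 3, 4 and 5. In nascent RNA it was 0.472-fold in contrast 2 (log2 -1.08 ± 0.18, adjusted p = 0.00020) and 0.602-fold in contrast 4 (log2 -0.73 ± 0.18, adjusted p = 0.021). The remaining nascent ratios were 0.875, 0.739 and 0.834 in contrasts 1, 3 and 5, with no call. RBBP8 was thus lower in the same direction in both assays, and in contrast 2 the nascent change was the larger (difference -0.68 ± 0.18 on the log2 scale, adjusted p = 0.013).

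EXO1, the exonuclease that extends resection, was higher in mRNA and lower in nascent RNA. Its mRNA ratios were 1.15, 1.02, 1.25, 1.03 and 1.13 in contrasts 1 to 5 of the authors' deposited table, called in contrast 1 (adjusted p = 0.00013), contrast 3 (log2 0.32 ± 0.04, adjusted p = 9.4e-08) and contrast 5 (adjusted p = 0.00081). Nascent ratios were 0.550, 0.604, 0.422, 1.07 and 0.522, and the call was in contrast 3 (log2 -1.24 ± 0.30, adjusted p = 0.0054).

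RAD51B, RAD51C, RAD51D, XRCC2 and XRCC3 encode related proteins that act in strand exchange, and of these XRCC2 and XRCC3 had the lowest nascent ratios. XRCC2 had nascent ratios of 0.574, 0.628, 0.324, 1.46 and 0.577 in the authors' deposited table and was called in contrast 3 (log2 -1.63 ± 0.39, adjusted p = 0.0049). Its mRNA was called higher in contrast 1 (1.08-fold, adjusted p = 0.020) and contrast 3 (1.12-fold, adjusted p = 0.00054). XRCC3 was the member with the second lowest nascent ratio of any call, 0.312 in contrast 2 (log2 -1.68 ± 0.47, adjusted p = 0.015), and was also called in contrast 3 (0.342-fold, adjusted p = 0.022). Its overlapping neighbour KLC1 had 0.995 and 0.923 in these contrasts, with no call. XRCC3 mRNA was called in opposite directions, 1.13-fold in contrast 1 (adjusted p = 0.0040) and 0.867-fold in contrast 2 (adjusted p = 0.0049). RAD51B mRNA was called lower in contrast 3 (0.816-fold, adjusted p = 0.0020), where its nascent ratio was 1.29 (adjusted p = 0.21). RAD51D, measured in RNA-seq alone, was called lower in contrast 2 (0.889-fold, adjusted p = 0.028). RAD51C had mRNA ratios between 0.946 and 1.02 and nascent ratios between 0.989 and 1.47 in the authors' deposited table, with no call.

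RAD54L and RAD54B encode translocases that act in the invasion of the intact strand, and RAD52 anneals single strands. RAD54L was the only member called in GRO-seq and not in RNA-seq. Its nascent ratios in the authors' deposited table were 0.567, 0.590, 0.346, 1.49 and 0.493, called in contrast 3 (log2 -1.53 ± 0.51, adjusted p = 0.036), against mRNA ratios between 0.919 and 1.09. It overlaps LRRC41, whose nascent ratio there was 0.784 (adjusted p = 0.25). RAD54B had the largest mRNA ratio among the members called in contrast 3, 1.34 (log2 0.42 ± 0.11, adjusted p = 0.0020), and was 1.22-fold in contrast 1 (adjusted p = 0.031), while its nascent ratio in contrast 3 was 0.651 (adjusted p = 0.17). RAD52 mRNA was called lower in contrast 1 (0.877-fold, adjusted p = 0.028) and contrast 3 (0.829-fold, adjusted p = 0.0026), with nascent ratios between 1.03 and 1.23.

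In the Fanconi core complex, the ligase that modifies FANCD2 and FANCI, FANCA showed the lowest nascent ratio in each contrast but contrast 4. There FANCG had 0.71, against 0.851 for FANCA. In contrast 1 FANCE lay close to FANCA, at 0.601 against 0.599. FANCA, a scaffold subunit, had nascent ratios of 0.599, 0.330, 0.308, 0.851 and 0.355 in contrasts 1 to 5 of the authors' deposited table. It was called lower in contrast 2 (log2 -1.60 ± 0.27, adjusted p = 0.00021), contrast 3 (-1.70 ± 0.27, adjusted p = 0.00014) and contrast 5 (-1.50 ± 0.30, adjusted p = 0.030), and in the last it was 1 of 18 genes called lower. Its mRNA ratios were 1.20, 0.964, 1.09, 0.997 and 1.10, called higher in contrast 1 (adjusted p = 6.9e-06), contrast 3 (adjusted p = 0.018) and contrast 5 (adjusted p = 0.013). FANCA overlaps ZNF276, whose nascent ratios of 0.722, 0.558, 0.521, 0.868 and 0.930 were called in contrast 3 alone (adjusted p = 0.038). The strand setting of the counting is not known here, so reads of both genes may be mixed.

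FANCC, another core subunit, was called lower in nascent RNA in contrast 2 (0.618-fold, log2 -0.69 ± 0.16, adjusted p = 0.0042) and contrast 3 (0.607-fold, adjusted p = 0.0029) of the authors' deposited table. Its mRNA was called lower in contrast 2 as well (0.864-fold, adjusted p = 0.0083). The X-linked FANCB was 0.436-fold in nascent RNA in contrast 3 (adjusted p = 0.038) and 1.30-fold in mRNA (adjusted p = 0.0028), with 1.29-fold in mRNA in contrast 1 (adjusted p = 0.0034). FANCM, the fork translocase that anchors the complex, was called higher in mRNA in contrast 2 (1.14-fold, adjusted p = 0.028) and contrast 3 (1.33-fold, adjusted p = 2.7e-06). FANCL, the ligase subunit itself, was 1.22-fold in contrast 1 (adjusted p = 1.2e-05) and 1.17-fold in contrast 3 (adjusted p = 0.00039), and its E2 partner UBE2T was 1.22-fold (adjusted p = 1.8e-07) and 1.21-fold (adjusted p = 7e-07). FANCE went down in mRNA, with ratios of 0.890, 0.875 and 0.767 in contrasts 1 to 3 (adjusted p = 0.012, 0.011 and 1.9e-06). FANCG was called in contrast 1 alone (1.21-fold, adjusted p = 3.7e-06) and FANCF in contrast 3 alone (0.906-fold, adjusted p = 0.027) in the authors' deposited table. FANCE, FANCF, FANCG, FANCL, FANCM and UBE2T were not called in nascent RNA.

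FANCD2 and FANCI form the pair that receives ubiquitin. FANCI nascent ratios were 0.847, 0.727, 0.526, 1.14 and 0.547 in the authors' deposited table, with a call in contrast 3 (log2 -0.93 ± 0.27, adjusted p = 0.020). FANCI mRNA was called higher in contrast 1 (1.26-fold, log2 0.34 ± 0.03, adjusted p = 3.6e-12), contrast 3 (1.09-fold, adjusted p = 0.00043) and contrast 5 (1.07-fold, adjusted p = 0.0079). FANCI overlaps POLG, whose nascent ratio in contrast 3 was 0.717 (adjusted p = 0.13) and whose mRNA ratio in contrast 1 was 1.32 (adjusted p = 1.9e-12). FANCD2 had nascent ratios of 0.723, 0.695, 0.571, 1.70 and 0.672, with an adjusted p of 0.051 in contrast 3. Its mRNA ratios were 1.09, 0.997, 1.02, 1.02 and 1.01, called in contrast 1 (adjusted p = 0.013).

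Of the genes that resolve joint molecules, BLM changed most. BLM encodes the helicase that dissolves double Holliday junctions with RMI1 and RMI2. Its mRNA ratio in contrast 1, 1.42 (log2 0.50 ± 0.04, adjusted p = 1.5e-12), was the largest of any member in the authors' deposited table, and in contrast 3 it was 1.14 (adjusted p = 0.00015). Its nascent ratios were 0.617, 0.613, 0.436, 1.33 and 0.594, called in contrast 3 (log2 -1.20 ± 0.36, adjusted p = 0.021). RMI1 mRNA was called in contrast 3 (1.12-fold, adjusted p = 0.039) and RMI2 mRNA in contrast 1 (1.15-fold, adjusted p = 0.0073). EME1, partner of the nuclease MUS81, was 1.29-fold in contrast 1 (adjusted p = 9.5e-07) and 0.899-fold in contrast 3 (adjusted p = 0.030), and MUS81 1.12-fold in contrast 1 (adjusted p = 0.00038). The nuclease scaffold gene SLX4 had mRNA ratios between 0.982 and 1.07. None of RMI1, RMI2, SLX4, EME1 or MUS81 was called in nascent RNA in the authors' deposited table, and EME1 had the largest implied standard error there (up to 0.76). EME1 overlaps LRRC59, with an mRNA ratio of 1.33 in contrast 1 (adjusted p = 2.8e-14), and MUS81 overlaps EFEMP2, with 2.21 (adjusted p = 1.2e-07). FANCL overlaps VRK2, with 1.15 (adjusted p = 0.00093), and how far reads were shared within these pairs was not tested.

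**Figure D2:**
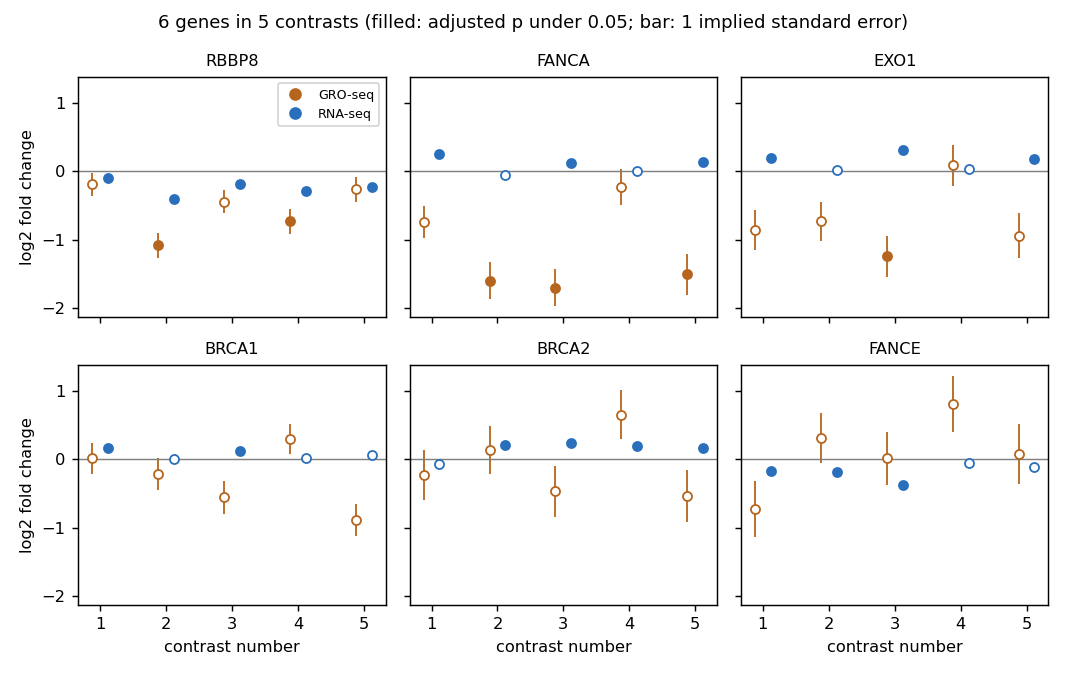
Log2 fold change of RBBP8, FANCA, EXO1, BRCA1, BRCA2 and FANCE (panels) in contrasts 1 to 5, with bars of 1 implied standard error and filled points for an adjusted p under 0.05. RBBP8 lies below 0 in both assays, FANCA and EXO1 lie below 0 in GRO-seq contrast 3 and above 0 in RNA-seq contrast 3, and BRCA2 mRNA lies above 0 in contrasts 2 to 5.

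The difference between the assays was tested for each gene as the GRO-seq minus the RNA-seq log2 fold change of the same contrast, over the 13772 genes in both tables. The libraries of the assays are separate. The test takes contrasts of the same number to compare the same groups in both assays, which the headers do not say. CYP1A1, whose mRNA ratios are given above, had nascent ratios of 1.38, 163, 3.99, 48.0 and 2.90 in contrasts 1 to 5 of the authors' deposited table, and SATB1 was not analysed in GRO-seq here. In contrast 3 the nascent change was the lower one in 22 of 31 members and the higher one in 9. At an adjusted p under 0.05 it was lower in 12 and higher in 1, where 11.4% and 11.1% of all genes were. The median difference was -0.68 over the members and -0.00 over all genes. The largest were those of FANCA (-1.83 ± 0.28, adjusted p = 3.5e-05), XRCC2 (-1.80 ± 0.39, adjusted p = 0.0016), FANCB (-1.58 ± 0.41, adjusted p = 0.0063) and EXO1 (-1.56 ± 0.30, adjusted p = 0.00054). RAD54L (-1.53), XRCC3 (-1.47), BLM (-1.39), FANCI (-1.05), RAD54B (-1.04), FANCD2 (-0.84), FANCC (-0.70) and BRCA1 (-0.68) followed, with adjusted p-values from 0.0033 to 0.044. RAD51B was the exception, with a difference of 0.66 ± 0.21 (adjusted p = 0.020). Of these, BLM, EXO1, FANCA, FANCB, FANCI and XRCC2 were called lower in nascent RNA and higher in mRNA.

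In contrast 1 the difference passed for BLM (-1.20 ± 0.33, adjusted p = 0.030), EXO1 (-1.06 ± 0.29, adjusted p = 0.029) and FANCA (-1.0 ± 0.25, adjusted p = 0.014), all lower in nascent RNA, where 3.27% of all genes were lower and 2.8% higher. Contrast 2 had FANCA (-1.55 ± 0.27, adjusted p = 0.00039), XRCC3 (-1.47 ± 0.47, adjusted p = 0.037) and RBBP8, against 6.96% lower and 6.18% higher. No member passed in contrast 4 (1.34% and 1.23% of all genes), and its members' median difference was 0.27. By an unadjusted p under 0.05, 1 of 31 members was lower there and 5 were higher, against 932 and 1034 of all 13772 genes. Contrast 5 had FANCA alone (-1.64 ± 0.30, adjusted p = 0.0084), against 0.399% and 0.566%. In contrasts 1, 2, 3 and 5 the median difference of the members was below 0, at -0.51, -0.25, -0.68 and -0.55. Over all genes the median difference was -0.03, -0.02, -0.00, 0.02 and 0.02 in contrasts 1 to 5.

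**Figure D3:**
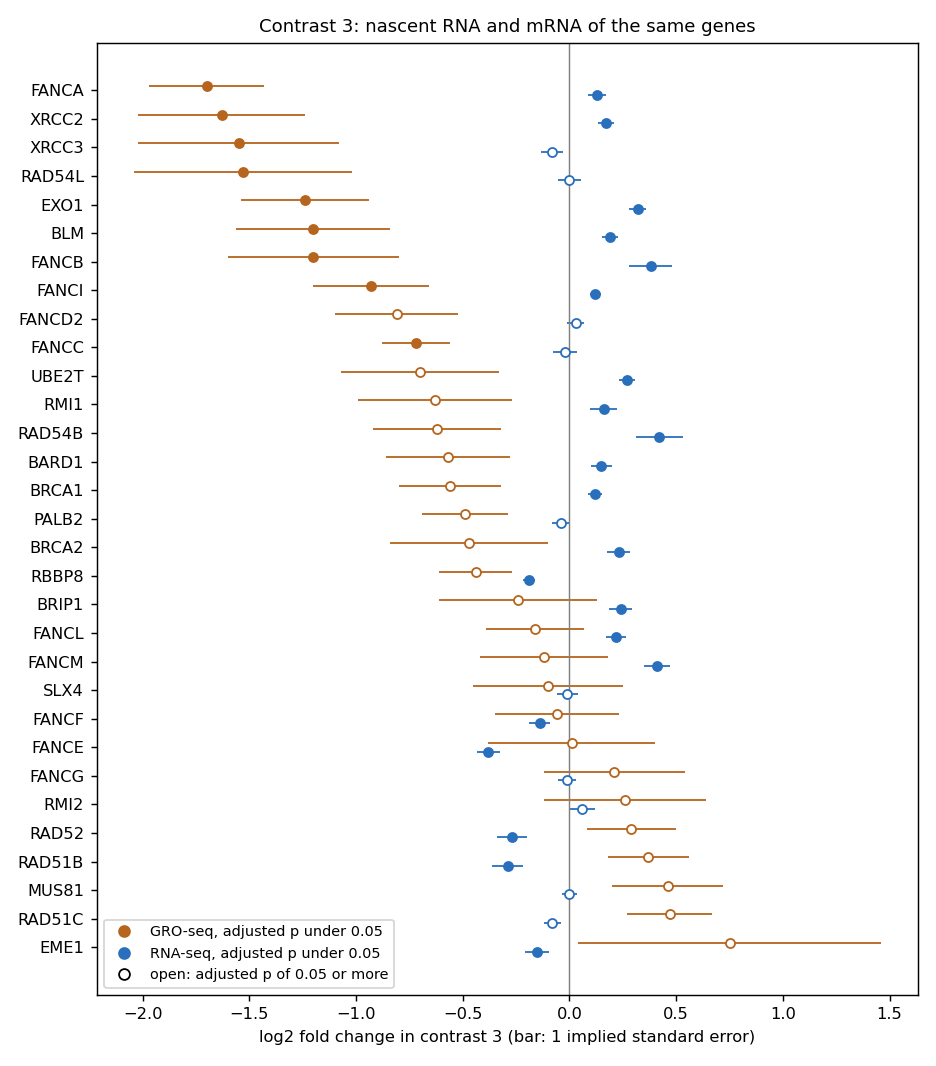
Log2 fold change in contrast 3 of the 31 genes with a value in both assays, ordered by GRO-seq, with bars of 1 implied standard error; filled points have an adjusted p under 0.05. The 9 filled GRO-seq points lie between -1.70 and -0.72, while the mRNA values of the same genes lie between -0.08 and 0.38.

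The recombination genes are read beside lists of other genes of the same pathways and of the cell cycle. Of other pathway genes, such as the MRN complex, RPA, the ATR and ATM kinases and further nucleases and helicases, 53 were in GRO-seq and 57 in RNA-seq. In GRO-seq contrast 3, 10 were called lower (18.9%, against 8.92% of all genes) and 4 higher (7.55%, against 9.23%). They included the helicase gene MCM8 (0.417-fold, adjusted p = 0.0019) and the end-joining polymerase gene POLQ (0.444-fold, chosen after its value was seen) as lower, and WDR48, a cofactor of the FANCD2 deubiquitinase (1.87-fold, adjusted p = 0.0028), and BABAM2 of the BRCA1-A complex (1.80-fold, adjusted p = 0.0035) as higher, in the authors' deposited table. Contrast 2 had 5 called lower, such as MCM8 (0.465-fold, adjusted p = 0.0049) and TOP3A, the topoisomerase partner of BLM (0.477-fold, adjusted p = 0.0035), and 8 higher, such as WDR48 (1.92-fold, adjusted p = 0.0021). These are 9.43% lower and 15.1% higher, against 7.83% and 7.63% of all genes. None was called in contrasts 1, 4 and 5 of GRO-seq, where 14, 6 and 8 of 53 passed an unadjusted p under 0.05. Of all 14745 genes, 2162, 2294 and 1702 did so.

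In RNA-seq, 17 other pathway genes were called higher and 8 lower in contrast 1, led by the crosslink nuclease gene FAN1 (1.27-fold, adjusted p = 5.5e-10), MCM8 (1.23-fold, adjusted p = 3.3e-09) and MAD2L2 of the shieldin complex (1.28-fold, adjusted p = 2.8e-08) in the authors' deposited table. Contrast 3 had 19 called higher and 7 lower, with POLQ (1.22-fold, adjusted p = 3.7e-06) and the nuclease gene DNA2 (1.19-fold, adjusted p = 4.9e-06) higher and RAD50 of the MRN complex lower (0.834-fold, adjusted p = 1.9e-05). Contrast 2 had 4 called higher and 6 lower, among them FAAP100 of the core complex (0.841-fold, adjusted p = 0.00095), the helicase gene HELQ (1.18-fold, adjusted p = 0.0040) and TONSL (0.877-fold, adjusted p = 0.0053). Contrast 4 had 3 called higher and 1 lower, with BOD1L1 (1.09-fold, adjusted p = 0.0025), ERCC4 (1.17-fold, adjusted p = 0.0048) and TONSL (0.886-fold, adjusted p = 0.017). Contrast 5 had 6 called higher and 3 lower, with RECQL (1.12-fold, adjusted p = 0.00030), RFWD3 (1.11-fold, adjusted p = 0.00059) and MRE11 (0.896-fold, adjusted p = 0.0017) in the authors' deposited table. As shares, 29.8%, 7.02%, 33.3%, 5.26% and 10.5% of these genes were called higher in contrasts 1 to 5. Over all genes it was 23.2%, 9.64%, 18.3%, 3.87% and 10.5%. Called lower were 14%, 10.5%, 12.3%, 1.75% and 5.26%, against 20.7%, 9.63%, 17.8%, 4.9% and 10.9%. The shares higher in contrasts 4 and 5 and lower in contrast 2 lie close to those of all genes.

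Counts of called genes follow for S phase, mitosis and p53, with no test against the members. Over all genes, GRO-seq called 0.292%, 7.63%, 9.23%, 1.58% and 0.115% higher and 0.495%, 7.83%, 8.92%, 1.53% and 0.122% lower in contrasts 1 to 5. RNA-seq called 23.2%, 9.64%, 18.3%, 3.87% and 10.5% higher and 20.7%, 9.63%, 17.8%, 4.9% and 10.9% lower. Of 40 S phase genes, 22 were called lower and none higher in GRO-seq contrast 3 (median 0.459-fold, against 0.710-fold over the members). In GRO-seq, 12 were called lower in contrast 2, 1 in contrast 1 and none in contrasts 4 and 5. In contrasts 4 and 5, 5 and 21 passed an unadjusted p under 0.05, against 2294 and 1702 of all 14745 genes. In RNA-seq the S phase genes were called higher in 29, 2, 23, 0 and 13 cases and lower in 0, 6, 1, 0 and 1 in contrasts 1 to 5. Of 25 mitosis genes, 4 were called lower and none higher in GRO-seq contrast 3, 1 was called higher in contrast 2 and 1 lower in contrast 5. Few calls did not mean few shifts in GRO-seq contrasts 4 and 5, where 11 and 16 mitosis genes passed an unadjusted p under 0.05. In contrast 4, 24 of the 25 had a ratio above 1 (median 1.5-fold). In contrast 5 all 25 had a ratio below 1 (median 0.573-fold). In RNA-seq 22 were called higher in contrast 1, 8 in contrast 2, 10 in contrast 3, 4 in contrast 4 and 2 in contrast 5, against 1, 0, 2, 0 and 1 lower. Of 30 genes activated by p53, which lowers the transcription of many cell cycle genes through p21, GRO-seq had 0, 11, 18, 6 and 2 called higher and 0, 1, 0, 0 and 0 lower in contrasts 1 to 5. RNA-seq had 3, 9, 8, 4 and 3 called higher and 24, 4, 7, 3 and 9 lower. CDKN1A, the gene of p21, had nascent ratios of 1.19, 1.77, 2.92, 1.75 and 2.05 in contrasts 1 to 5 of the authors' deposited table. Only that of contrast 3 was called (adjusted p = 0.00049). Its mRNA ratios were 0.851, 1.46, 1.48, 1.29 and 1.23, called lower in contrast 1 and higher in contrasts 2 to 5. The adjusted p in contrast 3 was 8.6e-16. The part of cell cycle phase or of p53 in the members' changes was not tested. In these bulk samples a changed number of cells in S phase and a changed amount of RNA per cell cannot be told apart.

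**Figure D4:**
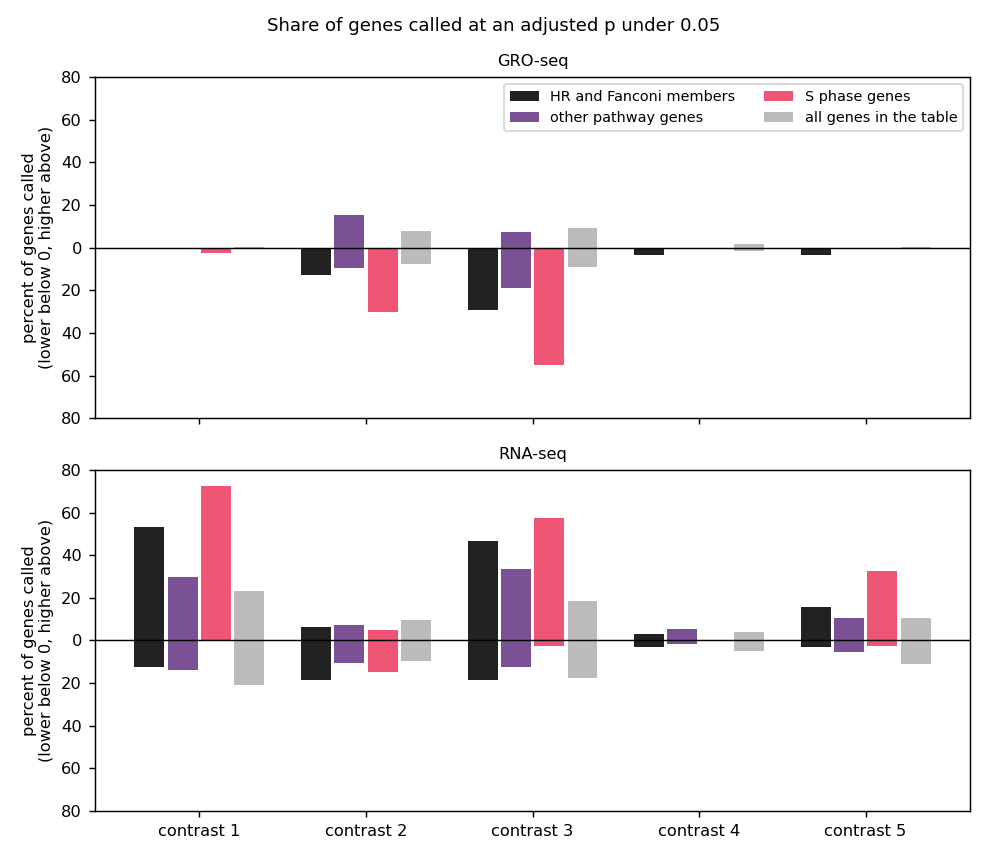
Percent of genes called at an adjusted p under 0.05, higher above 0 and lower below it, in each contrast for the recombination and Fanconi genes, the other pathway genes, the S phase genes and all genes of the table. In GRO-seq contrasts 2 and 3 the bars of the members and of the S phase genes lie only below 0, and in RNA-seq contrasts 1 and 3 both lie mainly above it.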

How the data were processed

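Nascent RNA (GRO-seq) and mRNA (RNA-seq) were measured in 48 libraries of MCF10A-1 cells. Per the submitters' processing notes, GRO-seq went through BWA (0.7.16a), featureCounts and limma, and RNA-seq through STAR and DESeq, with GRCh38 as the build. Settings, annotation, strand use and filters were not known here. Per the file headers, the authors deposited linear fold changes and p-values by gene symbol, in 5 numbered contrasts for each assay. These p-values are taken as unadjusted from their column name. The precision of a value is known only through its p-value, since depth and the spread between libraries are unknown. Nothing in the labels says that replicates came from separate cultures, so p-values measure only the spread between libraries, which may be technical. One label text gives the shorter exposure a length other than that of the titles and characteristics, which were followed.

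Benjamini-Hochberg adjustment ran within each contrast, across every row that has a symbol. In RNA-seq, 156 rows (0.994%) had none. The implied standard error is the size of the log2 fold change over the Student quantile at its p, with 25 (GRO-seq) and 30 (RNA-seq) degrees of freedom, at which a gene's 5 errors varied least. Assay differences used both errors with Welch degrees of freedom and were adjusted over 13772 genes. The steps were tested on simulated data. Members and lists were chosen with earlier results of these data known. Named with values were BRCA1, BRCA2, PALB2, FANCD2 and FANCA, every member called in GRO-seq or differing between the assays, and in RNA-seq the 6 members with the smallest adjusted p and the extreme folds. The rule named 3 other pathway genes per contrast. For completeness further called members are given. Older and newer symbols stood in the other pathway list, so fewer were in the tables than listed. Of the members, 29 matched the RefSeq promoter table, and 13 overlap another measured gene. The settings varied were the threshold (0.01 or 0.1), a 1.5-fold minimum, adjustment over all rows, restriction to genes with implied errors no larger than the median, and a normal quantile. The work used Python 3.11.15 with scipy 1.17.1, pandas 2.3.3, numpy 2.4.6 and matplotlib 3.10.9.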

Additional observations from a re-analysis of the deposited data

Results flagged for a closer look

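In 7 cases a member was called lower in nascent RNA and higher in mRNA under the same contrast number, and the difference between the assays itself passed the test. In contrast 3 the GRO-seq minus RNA-seq difference of the log2 fold change was -1.39 for BLM, -1.56 for EXO1, -1.83 for FANCA, -1.58 for FANCB, -1.05 for FANCI and -1.80 for XRCC2, with adjusted p-values from 3.5e-05 to 0.0073. In contrast 5 it was -1.64 for FANCA (adjusted p = 0.0084). The cause of these differences was not tested.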

How the results depend on the processing

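At an adjusted p under 0.01 the members called fell from 9 to 4 in GRO-seq contrast 3, from 1 to 0 in contrasts 4 and 5, and in RNA-seq from 8 to 5 in contrast 2, from 2 to 1 in contrast 4 and from 6 to 3 in contrast 5. At an adjusted p under 0.1, RNA-seq contrast 4 had 5, and the assay difference had 5 members in contrast 2 and 4 in contrast 5. At 0.01, a setting chosen after seeing the data, the assay difference fell from 3 to 0 members in contrast 1, from 3 to 1 in contrast 2 and from 13 to 7 in contrast 3. At 0.1 it had 3 members with the higher change in nascent RNA in contrast 3, against 1. A minimum of 1.5-fold left 0 members in each RNA-seq contrast and every GRO-seq call. With genes of larger implied error left out, 17 of the 31 remained in GRO-seq contrast 3, of which 5 were called, and RNA-seq contrast 4 had 4 called. Under these settings and the 2 that follow, the other total counts of called members stayed within 1.5 times of those reported. No direction turned, since the ratios are the same under each alternative. Adjustment over all rows kept all 73 called values of members, and the normal quantile kept all 20 assay differences. No replicate could be left out, and no paired analysis was possible because the tables hold no value per library. Depth limits cannot be given for the same reason.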

Other observations

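Gene length was set beside the changes as a description. Across the 31 members of GRO-seq, Spearman's rho between length and log2 fold change was -0.01, -0.09, -0.23, 0.09 and -0.19 in contrasts 1 to 5, and -0.03, -0.12, -0.07, -0.06 and -0.05 across 14184 genes. Across the 32 members of RNA-seq it was 0.07, 0.19, 0.25, 0.27 and 0.19, and -0.01, 0.15, 0.05, 0.17 and 0.01 across 14931 genes. Genes of a contrast share their libraries and are not independent, so no p is given. RAD51B, the longest member at 863 kb, had nascent ratios between 1.11 and 1.36, none of them called.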
